A study of Homo sapiens with 6 samples.

Results

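Immediate early genes, most of them encoding transcription factors, were examined in A549, an established human lung adenocarcinoma cell line. The cells were transfected with a control siRNA or with one that targets NORAD, a long noncoding RNA. The set held 10 genes of the 29476 in the count table, found by symbol: FOS, FOSL1, FOSL2, JUN, JUNB, JUND, EGR1, ATF3, IER2 and IER3. Each symbol matched 1 row, and all 10 genes passed the low-count filter, as did 15515 genes in all. The 2 groups were cells given negative control siRNA (si-NC) and cells given NORAD siRNA (si-NORAD), 3 libraries each, numbered 4, 5 and 6 in the labels. All cells were grown in RPMI-1640 and transfected with Lipofectamine 3000, and the labels name no untransfected group. The comparison asks how transcript levels differ between cells given these siRNAs. In RNA from a culture, fewer cells with a transcript and less of it per cell cannot be told apart.

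Immediate early genes are transcribed within minutes of a growth factor or stress signal, without new protein synthesis. MAP kinases switch them on through factors already present in the cell, among them SRF with its ETS partners such as ELK1 and ELK4. Fos and Jun proteins join in pairs through a leucine zipper to form AP-1, which binds DNA and drives genes of proliferation, invasion and inflammation. EGR1 is a zinc finger factor, ATF3 is a stress-induced zipper protein, and IER2 and IER3 are short-lived products of the same response. Many of these messages carry AU-rich elements in the 3' UTR and decay quickly.

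Total counts ran from 19332334 to 32760606 per library. NORAD, the targeted gene, was at 550, 461 and 423 CPM in si-NC libraries 4, 5 and 6 and 359, 372 and 400 CPM in si-NORAD libraries 4, 5 and 6, a log2 fold change of -0.34 that did not pass (edgeR adjusted p = 0.196). In FPKM (counts divided by gene length and library total) the NORAD groups overlapped, with si-NC 6 at 75.9 below si-NORAD 6 at 76.4. The labels do not say that libraries came from separate cultures, so p-values measure only how these libraries scatter, possibly for technical reasons. The si-NC libraries differed among themselves: the coefficient of variation was larger under si-NC than under si-NORAD for 88.8% of 9602 tested genes with a mean of at least 10 CPM. Each of the 12 epithelial and A549 markers passed the filter. Their sum ran from 12963 to 18113 CPM under si-NC and from 13938 to 14106 CPM under si-NORAD. ALDH1A1 (4105 to 5199 CPM) and KRT8 (2595 to 4225 CPM) were the largest parts. Within the same list EPCAM was only at 3.28 to 6.11 CPM and KRT19 at 1.78 to 2.65 CPM. The extraction text in the labels speaks of retina. Of 10 retina markers 3 passed the filter, OPN1SW at 3.09 to 5.02, PDE6A at 1.33 to 2.81 and NRL at 0.609 to 1.35 CPM, while the retinal factor CRX was at 0 to 0.0507 CPM. The retina markers summed to 7.17 to 8.52 CPM under si-NC and 7.73 to 9.22 CPM under si-NORAD. Sums of leukocyte markers ran from 9.85 to 15.3 CPM under si-NC and 9.08 to 9.88 CPM under si-NORAD, with CD14 the largest part. Those of fibroblast markers ran from 21.5 to 27.6 and 25.6 to 27.9 CPM. Endothelial markers summed to 33.5 to 35.8 CPM under si-NC and 33.7 to 35.1 CPM under si-NORAD, with ESAM the largest part.

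FOSL1, which encodes the AP-1 subunit Fra-1, gave the highest level of the 10 genes on the FPKM scale, which divides counts by gene length and library total. Over the 6 libraries FOSL1 was at 94.1 ± 12.5 FPKM (SD, n = 6). IER3 followed at 54.8 ± 6.31, JUNB at 34.9 ± 6.93, JUND at 31.2 ± 3.22, FOSL2 at 18.1 ± 3.45, JUN at 17.9 ± 1.86, FOS at 12.5 ± 2.43, IER2 at 12.1 ± 1.45, EGR1 at 6.02 ± 1.11 and ATF3 at 3.10 ± 0.447 FPKM. The ranges of neighbours in this order overlapped for JUNB and JUND, for FOSL2 and JUN, for JUN and FOS and for FOS and IER2. The ranges of FOSL1, IER3, EGR1 and ATF3 overlapped with no neighbour in this order. ATF3, the lowest of the set, still had 203 to 432 counts per library.

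None of the 10 genes passed in the edgeR quasi-likelihood fit at a Benjamini-Hochberg adjusted p under 0.05, the threshold for calling a gene, where 0.00645% of all genes tested passed. JUNB and FOS gave the lowest values under si-NORAD relative to si-NC, and their groups did not overlap on the CPM scale, which corrects counts for library size with TMM factors. That is 2 of 10 genes with all si-NORAD libraries below all si-NC libraries, against 12.7% of all genes tested. In the other direction there were 0 of 10, against 1963 of 15515 genes tested, also 12.7%. At an unadjusted p under 0.05 there were also 2 of 10, near the 21.6% of all genes tested. The median log2 fold change (si-NORAD over si-NC) of the 10 genes was -0.09, with 4 values above and 6 below 0, and that of all genes tested was 0.01.

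**Figure D1:**
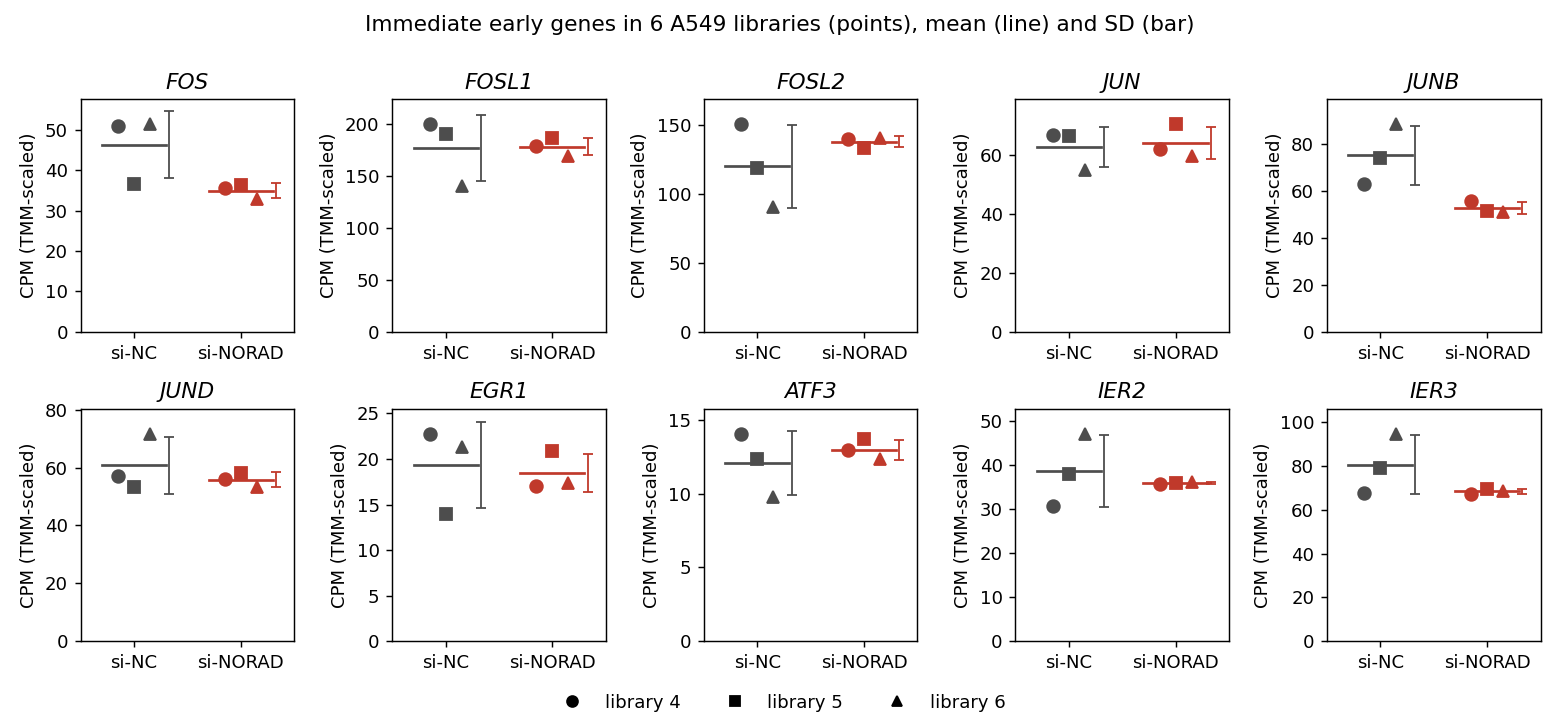
CPM (TMM-scaled, vertical axes from 0) of the 10 genes in the 3 si-NC (grey) and 3 si-NORAD (red) libraries, with symbols for library numbers, lines for means and bars for SD. For JUNB and FOS each red point lies below each grey point, and in every panel the grey points are spread more widely than the red ones.

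JUNB encodes a Jun protein that often acts as a weaker or opposing partner to c-Jun. It is a gene of 1 exon (ENSG00000171223, chromosome 19, positions 12791496 to 12793315 of GRCh38, plus strand). JUNB was at 63.2, 73.9 and 88.4 CPM in si-NC libraries 4, 5 and 6 against 55.8, 51.6 and 51.0 CPM in si-NORAD libraries 4, 5 and 6. All si-NORAD libraries were below all si-NC libraries, and the gap between the nearest libraries, si-NC 4 and si-NORAD 4, was smaller than the spread within si-NC. The fitted level was 29.7% lower, a log2 fold change of -0.51 (SE 0.12, 95% interval -0.78 to -0.24), with an edgeR adjusted p = 0.196. On the deposited FPKM scale the groups did not overlap either, with 35.4 to 46.5 under si-NC and 28.6 to 31.2 under si-NORAD. JUNB had a negative fold change in all 18 alternative analyses, from -0.62 without si-NC 4 to -0.25 after removing si-NC 5 and si-NC 6. With no overlap in CPM, leaving libraries out could not turn this sign, short of a change in scaling.

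DESeq2 called JUNB (log2 fold change -0.52, adjusted p = 0.0139) and none of the other 9 genes, where it called 4.59% of the genes it tested. JUNB lies inside the span of HOOK2, a gene on the opposite strand that encodes a microtubule linker. The annotated exons of the basic transcripts of JUNB and HOOK2 share 0 bases, and HOOK2 was at 14.3 ± 1.93 CPM under si-NC and 15.6 ± 0.835 CPM under si-NORAD (SD, n = 3 each). Its fitted log2 fold change was 0.13.

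FOS encodes c-Fos, the founding partner of Jun in AP-1 (ENSG00000170345, chromosome 14, positions 75278774 to 75282230, plus strand). FOS was at 50.7, 36.6 and 51.3 CPM in si-NC libraries 4, 5 and 6 against 35.6, 36.2 and 32.8 CPM in si-NORAD libraries 4, 5 and 6. The si-NC 5 library lay next to the si-NORAD libraries, while si-NC 4 and si-NC 6 were well above them. Fitted FOS was lower by 24.5%, a log2 fold change of -0.40 (SE 0.13, 95% interval -0.70 to -0.11), with an edgeR adjusted p = 0.196. In FPKM the groups overlapped, since si-NC 5 (10.8) was below si-NORAD 4 (11.2) and si-NORAD 5 (11.4). FOS also kept its direction in all 18 alternatives, from -0.55 without si-NC 5 to -0.31 on log2(FPKM + 1). For FOS too, groups apart in CPM meant that leaving out libraries could not turn the sign, short of a change in scaling.

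The promoter windows of FOS and JUNB are shown because these were the 2 genes whose groups did not overlap, and that of EGR1 because it held the binding motif of SRF. Windows run from 250 bases before to 50 bases after the start site, 5′ to 3′ on the gene's strand, from RefSeq on GRCh38.p14. They lie at chr14:75278578-75278877 for FOS, chr19:12791236-12791535 for JUNB and chr5:138465229-138465528 for EGR1, all on the plus strand. Capitals mark matches to the CArG box (the SRF motif), the CRE (TGACGTCA) or the AP-1 site (TGACTCA or TGAGTCA), searched on both strands.
FOS: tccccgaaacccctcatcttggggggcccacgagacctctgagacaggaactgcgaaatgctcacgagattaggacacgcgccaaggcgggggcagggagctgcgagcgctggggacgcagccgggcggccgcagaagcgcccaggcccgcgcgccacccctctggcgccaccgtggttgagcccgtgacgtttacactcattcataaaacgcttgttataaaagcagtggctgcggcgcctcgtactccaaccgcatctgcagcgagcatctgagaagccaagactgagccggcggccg
JUNB: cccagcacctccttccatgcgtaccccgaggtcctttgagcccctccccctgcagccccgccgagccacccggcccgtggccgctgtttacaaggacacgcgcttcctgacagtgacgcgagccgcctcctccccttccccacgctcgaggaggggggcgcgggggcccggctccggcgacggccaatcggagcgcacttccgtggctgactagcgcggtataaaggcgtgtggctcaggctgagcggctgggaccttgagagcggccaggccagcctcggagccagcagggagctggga
EGR1: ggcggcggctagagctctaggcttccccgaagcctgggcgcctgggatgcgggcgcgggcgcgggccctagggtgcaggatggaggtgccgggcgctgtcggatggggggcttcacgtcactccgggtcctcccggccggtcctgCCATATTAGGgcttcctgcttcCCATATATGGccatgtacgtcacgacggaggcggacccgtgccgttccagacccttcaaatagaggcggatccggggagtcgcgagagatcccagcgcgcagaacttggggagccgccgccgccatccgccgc

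Of the 10 genes, 8 matched the promoter table, with 9 windows since ATF3 has 2. EGR1 held 2 CArG boxes, at positions -105 and -83 from the start site, and the other 8 windows held none. CArG boxes were present in 1.29% of all 35116 promoter windows of the same length. A CRE was found in the window of JUND, at position -200, and in 1.85% of all windows. An AP-1 site was found in that of FOSL2, at position 5 after the start, and in 4.95% of all windows. The GC box (GGGCGG, both strands) was in 6 of the 9 windows and in 45% of all windows. The windows of FOS and JUNB held no CRE, AP-1 site or CArG box, which says only that these letters are not in these 300 bases. They were 64.7% and 71% G and C, where the median window was 58.7%.

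Among the other Jun genes, JUN encodes c-Jun, the main transactivating partner of Fos proteins, and JUND encodes a Jun protein that is present in resting cells. JUN (ENSG00000177606, chromosome 1, positions 58780788 to 58784327, minus strand) was at 67.0, 66.4 and 55.1 CPM in si-NC libraries 4, 5 and 6 and 62.2, 70.5 and 59.9 CPM in si-NORAD libraries 4, 5 and 6. The groups overlapped, with a log2 fold change of 0.03 and a 95% interval from -0.20 to 0.26 (edgeR adjusted p = 0.878). JUND (ENSG00000130522, chromosome 19, positions 18279760 to 18281622, minus strand) was at 57.2, 53.3 and 71.7 CPM under si-NC and 56.0, 58.2 and 53.2 CPM under si-NORAD, in the same order. The si-NC 6 library alone stood above the other libraries. The log2 fold change of JUND was -0.12 (interval -0.38 to 0.14, adjusted p = 0.531), and it turned to 0.01 without si-NC 6.

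FOSL1 and FOSL2 encode Fra-1 and Fra-2, Fos relatives that lack the strong activation domain of c-Fos and persist longer after a stimulus. FOSL1 (ENSG00000175592, chromosome 11, positions 65892049 to 65900573, minus strand) was at 200, 190 and 140 CPM in si-NC libraries 4, 5 and 6 and 179, 186 and 170 CPM in si-NORAD libraries 4, 5 and 6. All si-NORAD libraries lay between si-NC 6 and si-NC 5, with a log2 fold change of 0.01 and an interval from -0.27 to 0.30 (edgeR adjusted p = 0.966). FOSL2 (ENSG00000075426, chromosome 2, positions 28392448 to 28417312, plus strand) was at 150, 119 and 90.4 CPM under si-NC and 140, 133 and 141 CPM under si-NORAD. The si-NORAD libraries lay above si-NC 5 and si-NC 6 and below si-NC 4. Its log2 fold change was 0.20, with an interval from -0.15 to 0.55 (edgeR adjusted p = 0.445). It was 0.03 without si-NC 6, 0.40 without si-NC 4 and 0.12 after removing a length trend.

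EGR1 (ENSG00000120738, chromosome 5, positions 138465490 to 138469315, plus strand) was at 22.8, 13.9 and 21.3 CPM in si-NC libraries 4, 5 and 6 and 17.1, 20.8 and 17.4 CPM in si-NORAD libraries 4, 5 and 6. Like FOS, EGR1 was lowest in si-NC 5 among the si-NC libraries, and its groups overlapped (log2 fold change -0.07, interval -0.47 to 0.33, edgeR adjusted p = 0.834). ATF3 (ENSG00000162772, chromosome 1, positions 212565334 to 212620777, plus strand) was at 14.1, 12.3 and 9.77 CPM under si-NC and 12.9, 13.7 and 12.3 CPM under si-NORAD, again overlapping (0.11, interval -0.20 to 0.42, adjusted p = 0.653).

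IER2 encodes a nuclear regulator of transcription, and IER3 encodes a protein that modulates survival and ERK signalling. IER2 (ENSG00000160888, chromosome 19, positions 13150415 to 13154908, plus strand) was at 30.9, 38.1 and 47.2 CPM in si-NC libraries 4, 5 and 6, while the si-NORAD libraries were nearly equal at 35.8, 36.0 and 36.2 CPM. The si-NORAD values lay inside the si-NC range, with a log2 fold change of -0.10 (interval -0.42 to 0.21, edgeR adjusted p = 0.66). IER3 (ENSG00000137331, chromosome 6, positions 30743199 to 30744554, minus strand) was at 67.9, 79.3 and 94.9 CPM under si-NC and 67.1, 69.7 and 68.7 CPM under si-NORAD. Here si-NC 4 lay within the si-NORAD range, and si-NC 5 and si-NC 6 above it (-0.24, interval -0.50 to 0.02, adjusted p = 0.263). The IER3 value was -0.11 without si-NC 6. Antisense genes overlap exons of the basic transcripts of IER2 over 756 bases and of IER3 over 359 bases. The deposited counts do not include these antisense genes, and the sources used here do not state whether reads were counted by strand.

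**Figure D2:**
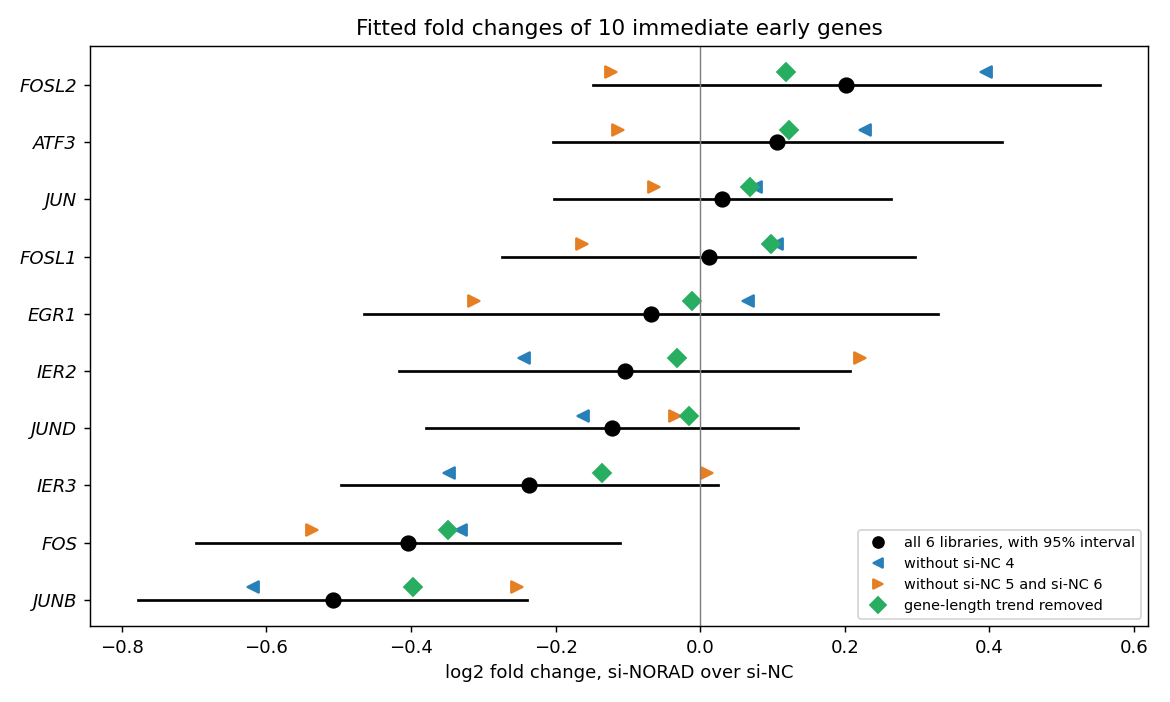
Log2 fold change of each gene (horizontal axis, si-NORAD over si-NC) with all 6 libraries (black, with 95% interval), without si-NC 4 (blue), without si-NC 5 and si-NC 6 (orange) and after removing a trend over gene length (green). JUNB, FOS and JUND lie below 0 in all 4 of these fits, while FOSL2, ATF3, JUN, FOSL1, EGR1, IER2 and IER3 lie on both sides of 0.

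Calls among the 10 genes depended on which si-NC libraries were used. Without si-NC 4, edgeR called 5 of the 10 genes, where it called 39.3% of all genes tested: JUNB (-0.62, adjusted p = 8.55e-05), IER3 (-0.35, 0.00255), FOS (-0.33, 0.038) and IER2 (-0.24, 0.0404) were lower and FOSL2 (0.40, 0.00456) was higher. With si-NC 5 and si-NC 6 removed (chosen with earlier results known), 3 of the 10 genes were called, all lower, against 3.05% of genes tested. They were FOS (-0.54), JUNB (-0.25) and FOSL1 (-0.16), and the spread in that fit comes only from si-NORAD libraries. With no low-count filter, the calls were FOS (adjusted p = 0.0062) and JUNB (0.00013), 2 of the 10 genes, where 6.56% of all genes were called. FOS and JUNB were called both without si-NC 4 and with no low-count filter, while DESeq2 did not call FOS (adjusted p = 0.0681). These fits share libraries and are not independent. FOSL1, FOSL2, JUN, EGR1, ATF3, IER2 and IER3 took opposite signs without si-NC 4 and without si-NC 5 and si-NC 6.

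The spread within si-NC was larger than within si-NORAD for all 10 genes. The coefficient of variation of CPM ran from 10.7% for JUN to 25.0% for FOSL2 under si-NC, and from 0.579% for IER2 to 11.4% for EGR1 under si-NORAD. Its median over the 10 genes was 17.9% under si-NC and 4.83% under si-NORAD, beside 10.8% and 3.42% over the 9602 tested genes with at least 10 CPM. Between 2 si-NC libraries the genes differed in opposite directions, a pattern chosen after the values were seen. The log2 difference of si-NC 6 minus si-NC 4 was 0.61 for IER2, 0.48 for IER3, 0.48 for JUNB and 0.33 for JUND. For FOSL2, ATF3, FOSL1 and JUN it was -0.73, -0.52, -0.51 and -0.28. FOS (0.01) and EGR1 (-0.10) had nearly the same level in both, and were lower in si-NC 5 than in si-NC 4, by 0.47 and 0.71 on the log2 scale.

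Gene length ran from 1356 bases for IER3 to 7157 bases for FOSL2, with 1820 for JUNB, 1887 for FOSL1 and 3238 for FOS. With the trend over length removed from each library, JUNB had a log2 fold change of -0.40, FOS -0.35, IER3 -0.14, FOSL2 0.12 and IER2 -0.03, and 0 of the 10 genes were called. The part of library differences in these results was not tested beyond these fits.

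**Figure D3:**
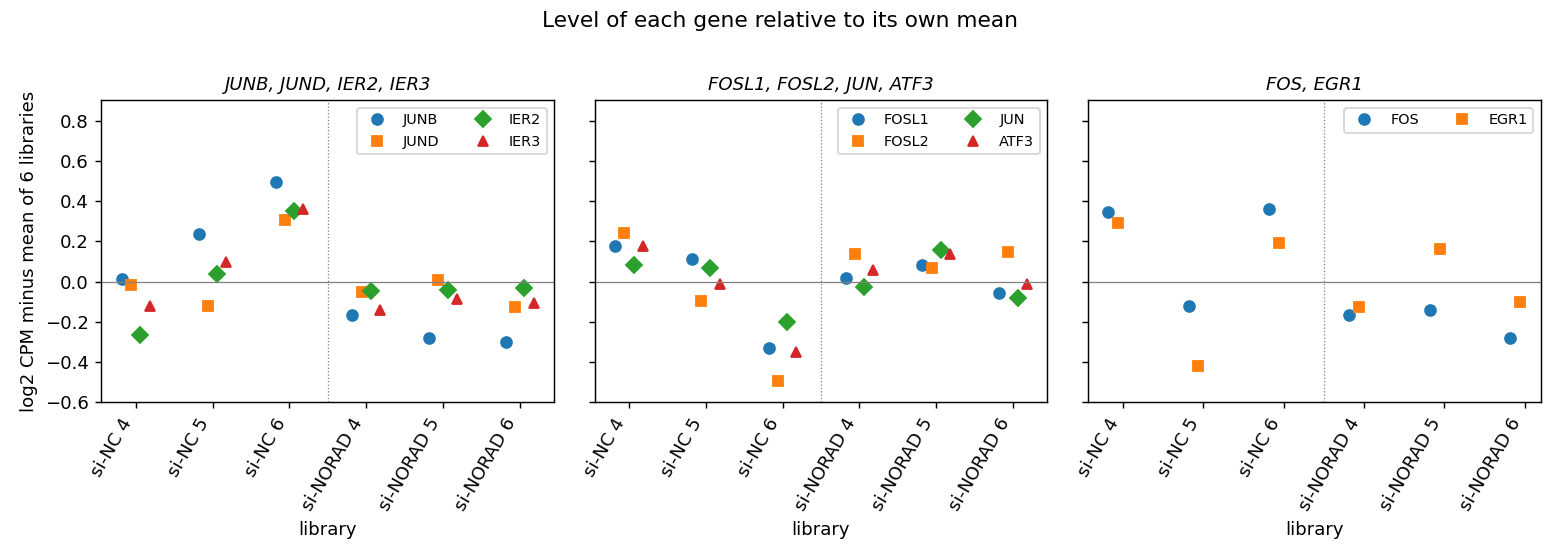
Log2 CPM of each gene in each library minus its mean over the 6 libraries (vertical axis), with libraries along the horizontal axis and the groups separated by the dotted line. In si-NC 6 JUNB, JUND, IER2 and IER3 lie above their means and FOSL1, FOSL2, JUN and ATF3 below, and FOS and EGR1 are lowest among si-NC in si-NC 5.

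AP-1 composition was described by the share of each paralog in the summed FPKM of its family, since the pairs that form depend on which subunits are present. In the Fos family FOSL1 made up 74.5% ± 3.15 under si-NC and 75.5% ± 0.924 under si-NORAD (SD, n = 3 each). FOSL2 made up 13.2% ± 1.26 and 15.4% ± 0.96. The share of FOS was 10.9%, 8.74% and 15.3% in si-NC libraries 4, 5 and 6 and 8.74%, 8.66% and 8.43% in si-NORAD libraries 4, 5 and 6, so that si-NC 5 lay within the si-NORAD range. FOSB held 0.387% to 0.77% in every library.

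In the Jun family the share of JUNB was 41.2%, 46.2% and 47.3% in si-NC libraries 4, 5 and 6 and 39.1%, 35.7% and 38.1% in si-NORAD libraries 4, 5 and 6. That of JUND was 36.4%, 32.5% and 37.5% under si-NC and 38.4%, 39.3% and 38.8% under si-NORAD. Neither share overlapped between groups, with JUNB lower and JUND higher under si-NORAD. Shares of 1 sum are not independent of each other, and the level of JUND itself was not higher (log2 fold change -0.12, overlapping groups). Shares outside the Fos and Jun families were not computed for comparison. The share of JUN was 22.4%, 21.3% and 15.2% under si-NC and 22.4%, 25.0% and 23.0% under si-NORAD. JUN shares were also higher without overlap, but only just, with si-NC 4 at 22.435% and si-NORAD 4 at 22.4408%. The summed Jun family level was 89.5 ± 7.64 FPKM under si-NC and 78.7 ± 3.25 FPKM under si-NORAD, and the summed Fos family level 123 ± 23.6 and 128 ± 4.51 FPKM. JUNB held a larger share than JUND in each si-NC library and in si-NORAD 4, and a smaller one in si-NORAD 5 and si-NORAD 6.

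**Figure D4:**
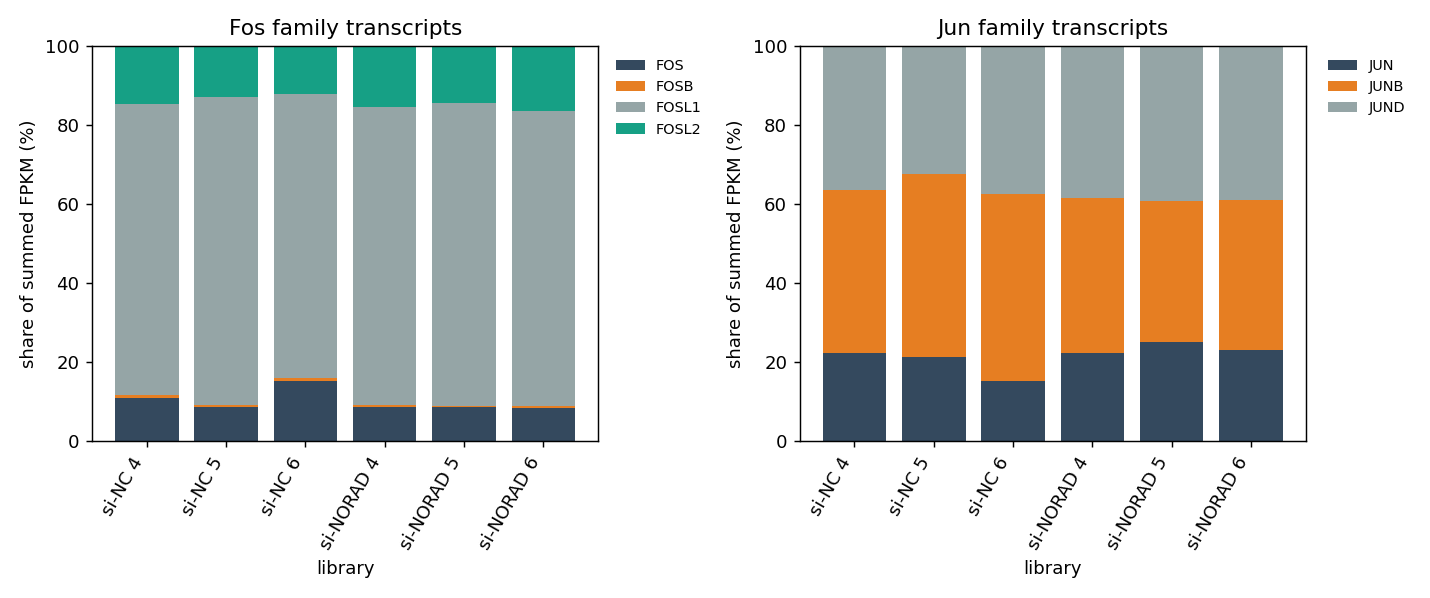
Share of each paralog in the summed FPKM of the Fos family (left) and the Jun family (right), in percent, for each of the 6 libraries. FOSL1 fills 71.8% to 78% of the Fos family in every library, and the JUNB share is 41.2% to 47.3% under si-NC and 35.7% to 39.1% under si-NORAD.

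NORAD is known for binding the Pumilio proteins, which recognise TGTANATA in 3' UTRs and promote decay of the message, so the longest annotated 3' UTR of each gene was searched for this motif on the sense strand. It was found in JUN (3 sites), FOSL2 (1) and EGR1 (1), 3 of 10 genes, and in 26.9% of 16659 genes with a 3' UTR. The AU-rich nonamer TTATTTATT, a mark of short-lived messages, was found in FOS and FOSL2 and in 8.66% of the 16659 genes. The shorter ATTTA, which the nonamer contains, was in 9 of the 10 and in 70% of all, with IER2 the exception. The sites are shown 5′ to 3′ on the gene's strand, from GENCODE 29 transcripts (GRCh38), with the motif in capitals. The 3 sites of JUN are shown since no other gene of the set had more than 1, and the FOS site since FOS was 1 of the 2 genes whose groups did not overlap.
JUN, chr1:58781541-58781570: ttaactgtgtaTGTACATAtatatattttt
JUN, chr1:58781427-58781456: ccagtgttgttTGTAAATAagagatttgga
JUN, chr1:58781274-58781303: tctgcatcatcTGTAGATActagctatcta
FOSL2, chr2:28416774-28416803: cgtgggagatgTGTATATAtatagtatttt
EGR1, chr5:138468721-138468750: gttaaccttttTGTAAATActgcttgaccg
FOS (AU-rich nonamer), chr14:75282060-75282089: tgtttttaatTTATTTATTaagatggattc

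The 3 genes with a Pumilio motif had log2 fold changes of 0.03 (JUN), 0.20 (FOSL2) and -0.07 (EGR1), with overlapping groups and no call in the edgeR fit. Their 3' UTRs were 1287, 4864 and 1234 bases long, against a median of 1216 over all genes. JUNB, with a 3' UTR of 500 bases, held no Pumilio motif and no AU-rich nonamer.

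Other immediate early genes, from a list of 34 without the 10, gave no call in edgeR. Of 31 tested, edgeR called 0, and 9 had an unadjusted p under 0.05, against 21.6% of all genes tested. There were 12 values higher and 19 lower under si-NORAD. The median log2 fold change was -0.04, beside 0.01 over all genes tested. MCL1, a survival factor, and DUSP1, a phosphatase that switches MAP kinases off, were the most abundant. MCL1 had a log2 fold change of -0.01 and DUSP1 of -0.21 (edgeR adjusted p = 0.204), with DUSP1 at 354, 361 and 368 CPM under si-NC and 323, 322 and 291 CPM under si-NORAD. The DUSP1 groups did not overlap. Of the 31 genes, 5 were lower without overlap and 3 higher, against 12.7% of all genes tested in each direction. GADD45B, a stress sensor chosen after its values were seen, was called by DESeq2 (-0.37, adjusted p = 0.0438), and was at 40.2, 50.1 and 46.5 CPM under si-NC and 33.5, 36.9 and 35.9 CPM under si-NORAD.

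Upstream of these genes, 22 kinases and factors of the serum response were tested, with 0 called by edgeR (6 at an unadjusted p under 0.05), 13 values higher and 9 lower, and a median of 0.07. ELK4, an ETS partner of SRF chosen after its values were seen, was called as higher by DESeq2 (0.44, adjusted p = 0.043). It was at 51.4, 49.9 and 36.8 CPM in si-NC libraries 4, 5 and 6 and 64.2, 60.3 and 63.8 CPM in si-NORAD libraries 4, 5 and 6. SRF itself, chosen in the same way, was at 66.4, 66.5 and 65.5 CPM under si-NC and 74.9, 73.0 and 75.7 CPM under si-NORAD, and was not called (0.17, edgeR adjusted p = 0.217). Both ELK4 and SRF had every si-NORAD library above every si-NC library. Of the 22 genes, 6 were higher without overlap and 2 lower, against 12.7% of all genes tested in each direction. The most abundant members, the kinase MAP2K2 and the ETS factor ELK3, had log2 fold changes of -0.13 and 0.07. Of 15 feedback regulators and outputs of ERK tested, edgeR called 0 (2 at an unadjusted p under 0.05), with a median of 0.0049. CCND1 (cyclin D1) and MYC had values of -0.07 and -0.04.

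Partners and targets were tested in the same fit. Of 16 tested zipper partners of AP-1, 0 were called (5 at an unadjusted p under 0.05), with a median of -0.04, and their most abundant members were ATF4 (-0.20) and NFE2L1 (0.24). Of 14 tested AP-1 target genes 0 were called (3 at an unadjusted p under 0.05), with a median of -0.04. HMGA1 and CD44, the most abundant targets, had log2 fold changes of 0.00046 and 0.02. Of all genes tested, 21.6% were under that unadjusted p, and 12.7% had groups that did not overlap in each direction. Of the 14 tested targets, 0 had every si-NORAD library above every si-NC library. The 3 targets at that p, chosen after their values were seen, had each si-NORAD library below each of the si-NC libraries. They were the chemokine gene CXCL8 (5.43 ± 0.913 against 3.28 ± 0.357 CPM), HMOX1, which encodes heme oxygenase (31.6 ± 2.47 against 25.4 ± 0.08 CPM), and the urokinase receptor gene PLAUR (32.2 ± 3.02 against 26.0 ± 0.91 CPM; SD, n = 3 each).

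Of 12 partners and targets of ATF3 in the stress response, edgeR called 0 (1 at an unadjusted p under 0.05), with 3 values higher and 9 lower and a median of -0.10. Among them ATF4, which translates stress into transcription, had a log2 fold change of -0.20 and PPP1R15A, a phosphatase subunit of the same pathway, of -0.01. Of 13 factors that degrade or stabilise AU-rich messages 0 were called (3 at an unadjusted p under 0.05), with a median of 0.05 and values of -0.12 for HNRNPD and 0.16 for KHSRP. DESeq2 called 1 gene each of the other immediate early and the upstream lists and 0 of the other 5 lists, and limma-voom 0 of all 7. Without si-NC 4, where 39.3% of genes were called, edgeR called 9 other immediate early genes, 12 upstream factors, 4 ERK outputs, 6 zipper partners, 6 AP-1 targets, 3 ATF3 partners and 8 decay factors.

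**Figure D5:**
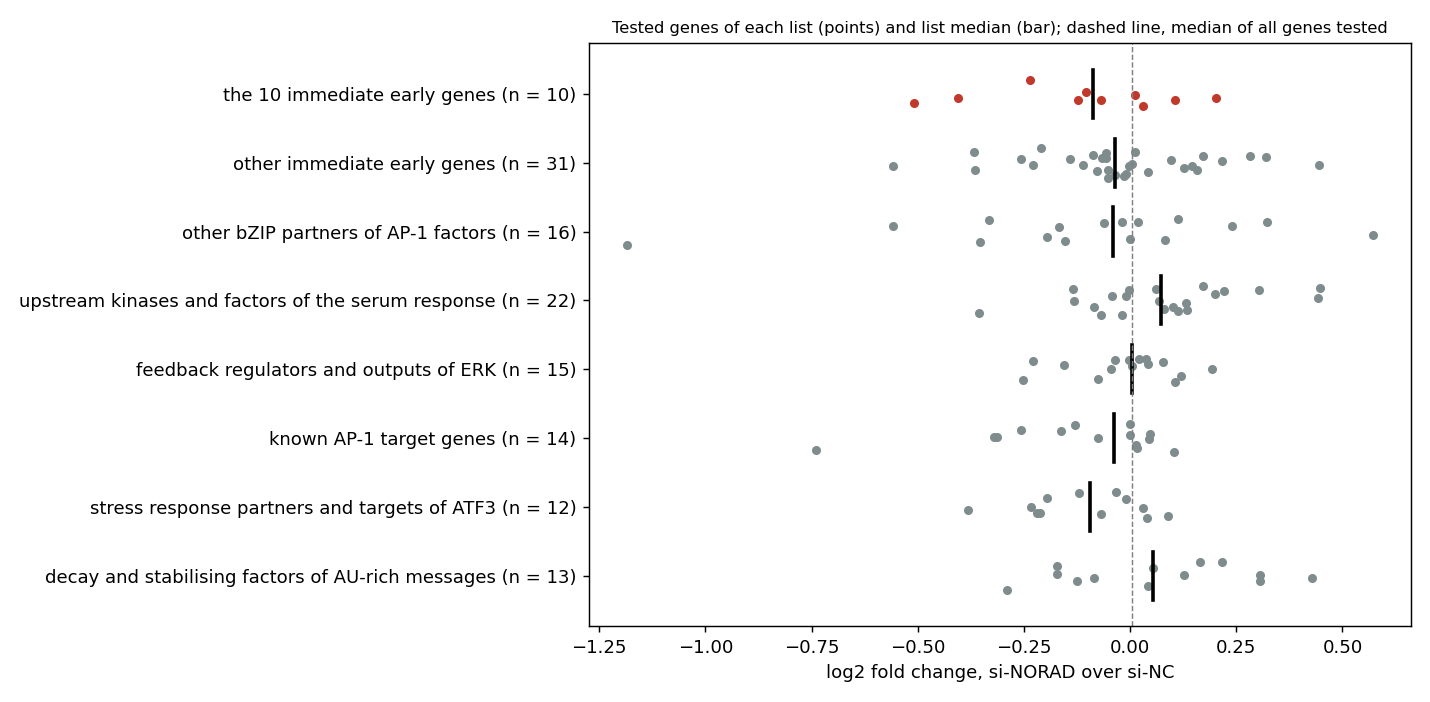
Log2 fold changes (horizontal axis, si-NORAD over si-NC) of the tested genes of the 10-gene set (red) and of 7 related lists (grey), with the median of each as a bar and the median of all genes tested as a dashed line. List medians lie between -0.10 and 0.07, and the genes of each list fall on both sides of 0.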

How the data were processed

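Per the labels' protocols, ribosomal RNA was depleted and directional libraries were made. The submitters' processing notes name HISAT2, HTSeq 0.6.1, FastQC and the build GRCh38. No strand setting for counting is named. The authors deposited raw read counts per gene and FPKM values; their ratio implied a single gene length in 100% of values, within 0.1%. No column belonged to another series (0 such columns). Total counts ran from 19332334 to 32760606, so 1 count is 0.03 to 0.0507 CPM.

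Counts were tested with edgeR 4.0.16 (R 4.3.3) across the 15515 genes passing filterByExpr, with TMM scaling, robust quasi-likelihood F test, si-NORAD against si-NC, two-sided, no covariate. Adjusted p-values are Benjamini-Hochberg over all genes tested, called under 0.05. Alternatives used DESeq2 1.42.0 and limma 3.58.1. The fit was checked on simulated counts with equal spread in both groups. That check does not cover the unequal spread of these data. The 10 genes, the lists (7, plus 5 of cell markers; 172 of 174 entries found) and the added alternatives were chosen with earlier results of these data known. Named list genes are the called ones or, with none called, the 2 most abundant; others are said to be chosen afterwards. Proteins were not compared. Promoters are from RefSeq (GRCh38.p14) and 3' UTRs from GENCODE 29, the longest basic transcript. Motifs were searched with Python 3.11.15, and figures drawn with matplotlib 3.10.9.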

Additional observations from a re-analysis of the deposited data

How the results depend on the processing

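JUNB and FOS kept their negative direction in all 18 alternatives. Their groups did not overlap in CPM, so leaving libraries out could not turn the sign, short of a change in scaling. Under RLE or upper quartile scaling, limma-voom, the 3 fits on FPKM, length trend removed or no robust estimation, 0 of the 10 were called. The number of genes called moved from 1 to 1935 without the low-count filter (2 of the 10 genes), 461 with DESeq2 (1 of the 10), 2 with limma-voom, 3 in each filtered FPKM fit, 5 with the length trend removed and 499 after removing si-NC 5 and si-NC 6 (3 of the 10). Leaving out 1 library at a time gave 0 to 6251 genes called and 0 to 5 of the 10, the highest without si-NC 4. With the replicate number as a block 2 genes were called and 0 of the 10. Correlations of same-numbered deviations were -0.02, -0.0048 and -0.07, and no library correlated best with its own number. With 3 libraries a group, this cannot show whether the numbers share more than a label.

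Removing si-NC 5 and si-NC 6 turned the sign for FOSL1 (-0.16), FOSL2 (-0.12), JUN (-0.064), ATF3 (-0.11), IER2 (0.22) and IER3 (0.0092). Leaving out single libraries, values ran from -0.13 to 0.11 for FOSL1, 0.034 to 0.40 for FOSL2, -0.35 to -0.11 for IER3, -0.058 to 0.077 for JUN, -0.21 to 0.013 for JUND, -0.26 to 0.066 for EGR1, -0.024 to 0.23 for ATF3 and -0.24 to 0.060 for IER2. EGR1 also turned on log2(FPKM + 1), with and without the filter (0.012 each), and on log2(FPKM + 0.1) (0.018). For these genes the cause was not tested. With 3 libraries a group, the 95% intervals of the 10 genes reach from -0.78 (JUNB) to 0.55 (FOSL2) on the log2 scale. The lowest count of any of the 10 genes in a library was 203.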

Other observations

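FOSB and the other EGR genes, paralogs outside the 10-gene set, were measured at low levels. Other related genes were not low. Examples, chosen after their values were seen, were IER5 (179 to 250 CPM), IER5L (41.8 to 73.0 CPM) and JDP2 (21.8 to 30.7 CPM). EGR2 was at 0.157 ± 0.102 CPM under si-NC and 0.258 ± 0.159 CPM under si-NORAD (SD, n = 3 each), and neither it nor EGR3 or EGR4 passed the low-count filter. FOSB, the fourth Fos gene, was at 6.14, 3.33 and 3.99 CPM in si-NC libraries 4, 5 and 6 and 2.70, 2.87 and 3.65 CPM in si-NORAD libraries 4, 5 and 6. Its log2 fold change was -0.56 (edgeR adjusted p = 0.227), the groups overlapped, and si-NC 4 stood above the other libraries. The value was -0.27 without si-NC 4 and -1.02 after removing si-NC 5 and si-NC 6. The orphan receptor genes NR4A1, NR4A2 and NR4A3, also induced early, had overlapping groups, with NR4A1 at 5.38 ± 0.935 CPM under si-NC and 5.16 ± 0.786 CPM under si-NORAD.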
